A study of Rattus norvegicus with 9 samples.

Results

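Fatty acid oxidation and its regulator PPAR alpha were followed through 34 named genes in liver RNA of male rats. The genes encode the enzymes of mitochondrial and peroxisomal beta-oxidation, omega-oxidation and ketone body metabolism, with the receptor itself and further genes that it controls. They were chosen by name, as symbols that are rows of both deposited tables. That left 33 genes of the 15565 found in both tables, because Cyp4a3 was not analysed here. Of these, 32 passed the filter on low counts, and Acot1 did not. No gene of the list was called changed between any of the groups, so the values below describe levels, spread between livers and the sizes of differences that were not called.

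The rats were of the strain labelled SD, and the labels name no allele or transgene. The 3 SCL-treated livers came from rats given Smilax china L., a plant shortened in the labels to SCL, and no label gives the diet of these rats. The 3 high-fat diet livers came from rats fed such a diet for 8 weeks, as a model of non-alcoholic fatty liver. The 3 normal diet livers came from rats on normal diet. The labels call the SCL-treated and the high-fat diet tissue alike non-alcoholic fatty liver. The design text speaks of an SCS group where the sample labels have SCL, and both names were read as the same group. Samples are numbered, but nothing says that each came from its own animal. The p-values thus set differences between groups against the scatter between samples, and that scatter may be of technical origin.

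In the liver, fatty acids are activated to acyl-CoA and carried into mitochondria as carnitine esters, and repeated rounds of beta-oxidation then shorten them to acetyl-CoA. Much of that acetyl-CoA leaves the liver as ketone bodies during fasting. Very long chains are first shortened in peroxisomes, and cytochrome P450 enzymes of the Cyp4a family oxidise the far end of the chain in the endoplasmic reticulum. PPAR alpha is a nuclear receptor activated by fatty acids. With its partner RXR it binds DNA at direct repeats of the hexamer AGGTCA and switches on genes at nearly every step of this route, most strongly in rodents.

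Libraries held 12413774 to 15521648 reads, and the listed genes together took 1.33% ± 0.258 of the reads outside the mitochondrial genome in SCL-treated livers, 1.34% ± 0.475 in high-fat diet livers and 1.38% ± 0.0256 in normal diet livers (SD, n = 3 each). Transcripts of the mitochondrial genome took 49.0% of reads in SCL-treated replicate 2 and 44.1% in high-fat diet replicate 3, against 3.85% to 18.8% in the other 7 libraries. These 2 libraries stand apart, and results are given with and without them for a part of the steps and genes. The mitochondrial share averaged 22.4% ± 23.2 in SCL-treated, 22.6% ± 19.9 in high-fat diet and 6.54% ± 4.01 in normal diet livers (SD, n = 3 each). An exact permutation test against normal diet gave p = 0.3 for SCL-treated and p = 0.2 for high-fat diet livers, where 0.1 is the smallest possible p. Mean shares thus differed in both comparisons with normal diet. All 12 hepatocyte markers were present, with a summed level of 33999.7 to 115261 FPKM in SCL-treated, 36668 to 93496 FPKM in high-fat diet and 93646 to 107035 FPKM in normal diet livers. The 2 muscle markers found summed to at most 1.33 FPKM in any library, and the 2 adipocyte markers found to between 16.03 and 36.3 FPKM. Markers of Kupffer cells and macrophages, 10 genes, summed to 141 to 464 FPKM in SCL-treated, 179 to 436 FPKM in high-fat diet and 411 to 622 FPKM in normal diet livers. For hepatocyte and Kupffer cell markers alike, the lowest sums came from SCL-treated replicate 2 and high-fat diet replicate 3. The library size behind FPKM includes mitochondrial reads, and the part of the mitochondrial share in these sums was not tested. The 3 neutrophil markers found summed to 10.8 to 22.5, 1.95 to 49.6 and 8.72 to 16.3 FPKM in the same order of groups. Their highest sum came from high-fat diet replicate 3, and the highest sum of erythroid markers, 620 FPKM, from SCL-treated replicate 2. In bulk tissue, fewer cells of a type and less RNA per cell cannot be told apart.

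Levels per length spanned a 3190-fold range between the highest and the lowest member mean. FPKM, the deposited unit that divides reads by gene length and library size, allows genes to be set against each other. Cyp4a2, a fatty acid omega-hydroxylase, was the most abundant, with 1551 ± 793 FPKM in SCL-treated, 928 ± 511 FPKM in high-fat diet and 1905 ± 831 FPKM in normal diet livers (SD, n = 3 each), and it made up 22.9% of the summed FPKM of all members. The next highest means over the 9 livers were 468 FPKM for Eci1, 401 FPKM for Acaa2, 345 FPKM for Etfb and 335 FPKM for Acaa1b. In all, 19 of the 33 members averaged over 100 FPKM. At the low end stood Ppara with 5.08 FPKM, Cyp4a8 with 3.48 FPKM and Acot1 with 0.458 FPKM.

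**Figure D1:**
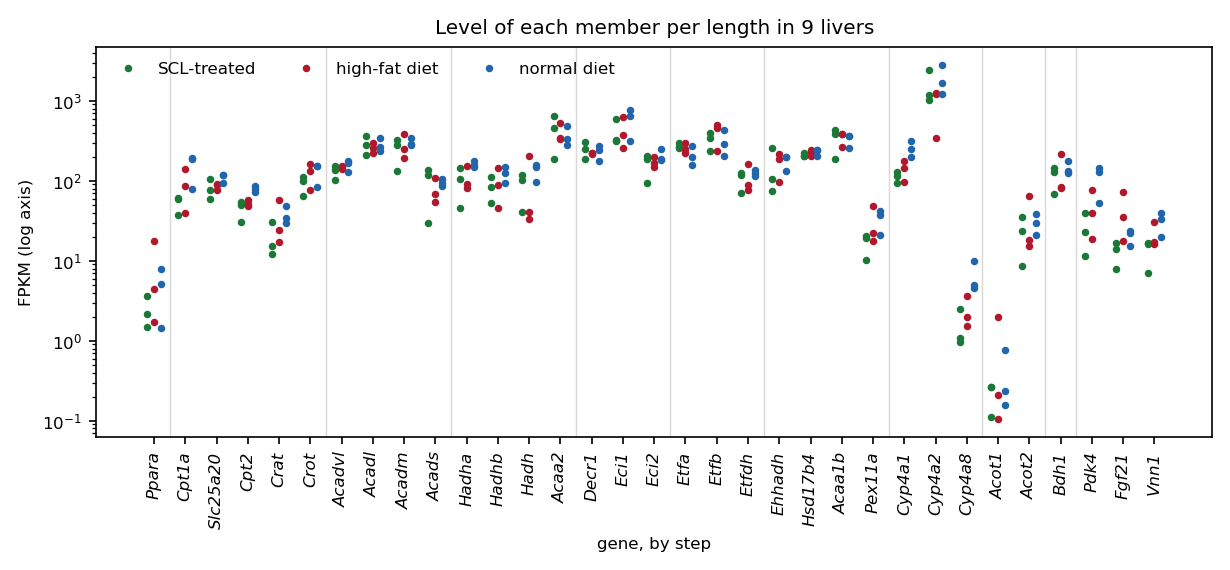
Level of each of the 33 members in 9 livers, in FPKM on a log axis, with genes grouped by step and SCL-treated, high-fat diet and normal diet livers side by side; each point is 1 library. Cyp4a2 stands above all other members, and the groups overlap for most genes.

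How steady a gene was differed widely within the list. On the CPM scale (reads of a gene divided by the library size after TMM scaling), the highest of the 9 livers exceeded the lowest by 1.30-fold for Hsd17b4, a multifunctional enzyme of peroxisomal beta-oxidation, and by 1.45-fold for Acadvl, the very long chain acyl-CoA dehydrogenase. The same ratio was 10.1 for Ppara, 9.57 for Pdk4, 9.41 for Cyp4a8, 8.43 for Fgf21, 7.59 for Acot2 and 7.24 for Cyp4a2, the 6 widest ranges among tested members. Core enzymes were not all steady, since the ratio was 4.65 for Hadh and 4.30 for Acads. High-fat diet replicate 3 was the highest of the 9 libraries for 7 of the 32 tested members (Crat, Crot, Acadvl, Acaa1b, Pex11a, Acot2 and Fgf21), and for 2030 of all 12041 tested genes. SCL-treated replicate 2 was the lowest for 12 of the 32 members, and for 2368 of all genes. Both are the libraries with the large mitochondrial share, whose part in these extremes was not tested.

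**Figure D2:**
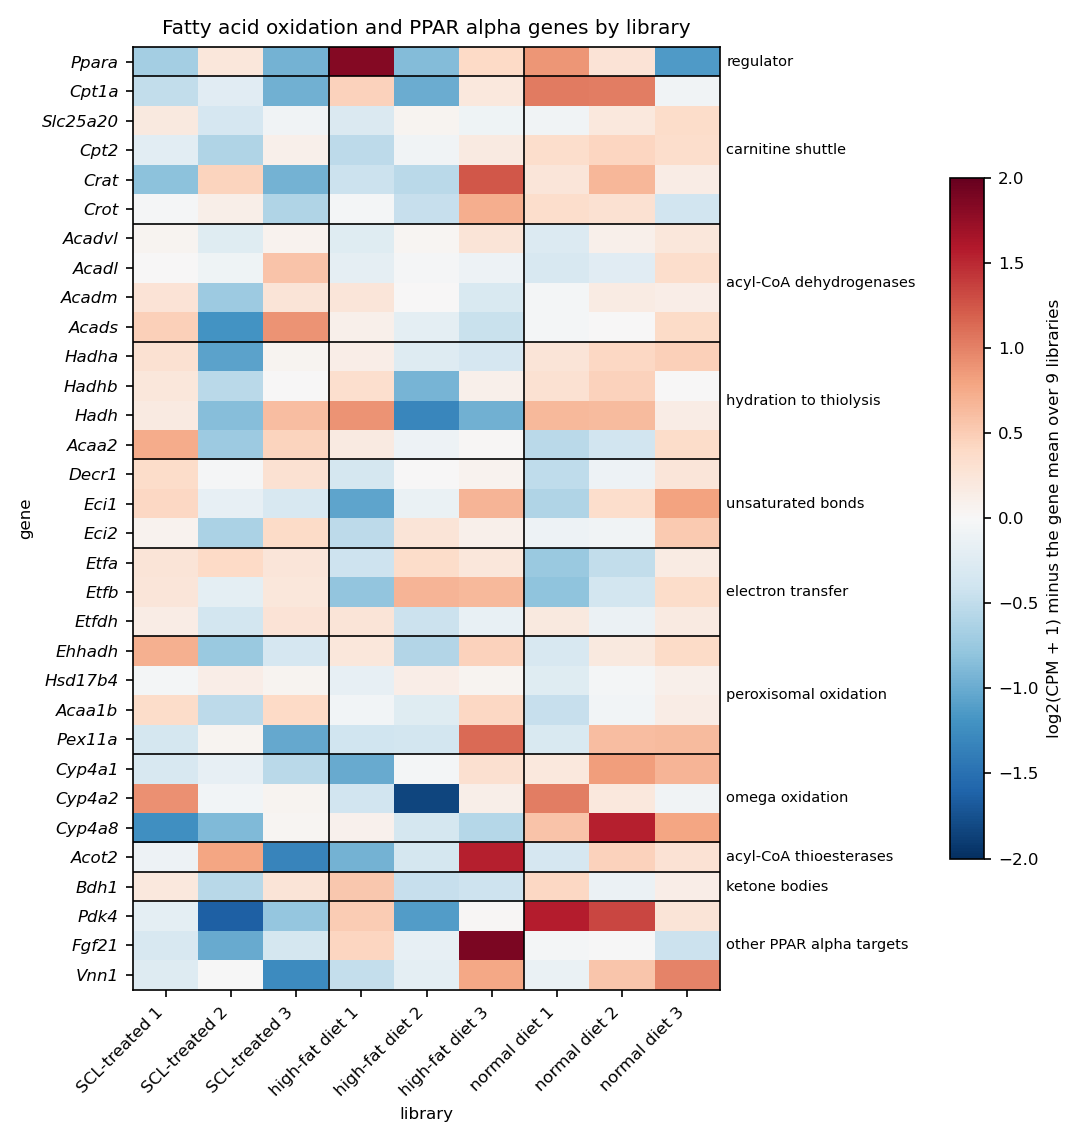
Level of the 32 tested members in each library as log2(CPM + 1) minus the mean of that gene over 9 livers, with red above and blue below the mean, grouped by step. High-fat diet replicate 3 carries the strongest red for Crat, Pex11a, Acot2 and Fgf21, and Pdk4 is red in normal diet replicates 1 and 2.

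Between high-fat diet and normal diet livers the median log2 fold change of the 32 members was -0.13, against 0.03 over all 12041 genes tested. Fold changes were positive for 11 members and negative for 21. At an adjusted p under 0.05, edgeR called 0 members, while it called 0.0083% of all genes, and DESeq2 called 0 members and 0.413% of the genes it tested. An unadjusted edgeR p under 0.05 was reached by 3 members, namely Fgf21 on the high side and Cyp4a8 and Pdk4 on the low side, where 4.32% of all genes reached it. For 3 members, Cpt2, Hadha and Cyp4a8, every high-fat diet liver lay below every normal diet liver, where 10.6% of all genes had groups that did not overlap in either direction. Among markers, the log2 fold change was negative for 12 of 12 hepatocyte (median -0.53) and 10 of 10 Kupffer cell and macrophage markers (median -0.68). It was positive for 3 of 3 neutrophil markers (median 1.14) and 12 of 12 mitochondrial genome transcripts (median 1.98). Neutrophil markers summed to 1.95, 12.9 and 49.6 FPKM in the high-fat diet and 8.72, 16.3 and 9.33 FPKM in the normal diet livers. Only high-fat diet replicate 3 lay above all normal diet livers. It also had the lowest hepatocyte sum of its group, 36668 FPKM against 93496 and 83093 FPKM. Marker fold changes without that library are not given here. None of these markers was called, and their part in the members' values was not tested in this or the other comparisons.

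Between SCL-treated and high-fat diet livers the median of the members was 0.00, against -0.03 over all genes, with 17 fold changes positive and 15 negative. edgeR called 0 members and 0% of all genes at an adjusted p under 0.05, and DESeq2 called 0 members and 0.00643% of genes. Fgf21, lower in SCL-treated livers, was the only member with an unadjusted edgeR p under 0.05, which 1.95% of all genes reached. It was also the only member whose groups did not overlap, as was the case for 4.78% of all genes. The marker medians were 0.31 for hepatocytes (10 of 12 positive), 0.19 for Kupffer cells and macrophages (7 of 10 positive) and -0.27 for neutrophils (3 of 3 negative), with none called. The largest median of the other marker lists was 1.01, for 3 erythroid markers, all positive and none called.

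Between SCL-treated and normal diet livers the median was -0.19, against 0.03 over all genes, with 8 fold changes positive and 24 negative. edgeR called 0 members and 0.0083% of all genes, and DESeq2 called 0 members and 0.281% of genes. The lowest adjusted p of any member in any of the 19 other settings tried was 0.0607, for Pdk4 in DESeq2. An unadjusted edgeR p under 0.05 was reached by 4 members, Cpt1a, Cyp4a1, Cyp4a8 and Pdk4, all lower in SCL-treated livers, where 6.88% of all genes reached it. The groups did not overlap for 6 members, 5 of them lower (Cpt1a, Cpt2, Cyp4a1, Cyp4a8 and Pdk4) and 1 higher (Etfa) in SCL-treated livers, against 15.3% of all genes. The marker medians were -0.19 for hepatocytes (9 of 12 negative), -0.36 for Kupffer cells and macrophages (10 of 10 negative) and 0.77 for neutrophils (3 of 3 positive), with none called. Larger medians included 2.16 for mitochondrial genome transcripts (11 of 12 positive), 1.37 for erythroid (3 of 3 positive) and 0.86 for B and plasma cell markers (4 of 4 positive). None of these was called either. The comparisons share libraries by pairs, so they are not independent of each other.

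**Figure D3:**
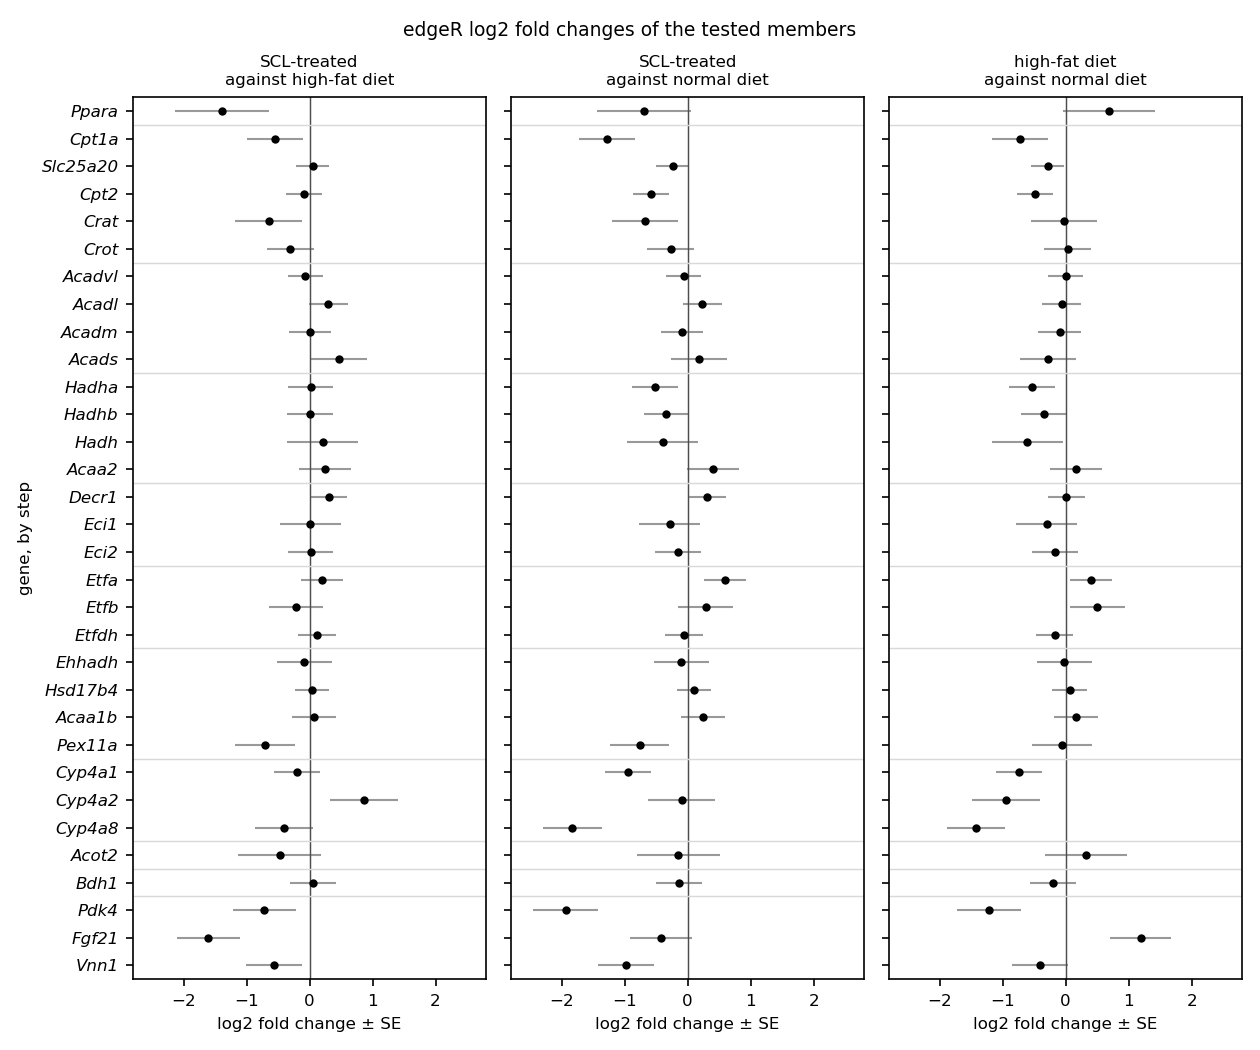
edgeR log2 fold change of each of the 32 tested members with its standard error, for SCL-treated against high-fat diet, SCL-treated against normal diet and high-fat diet against normal diet livers, grouped by step. Most bars cross or come near 0, and Pdk4 and Cyp4a8 lie farthest to the left against normal diet.

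Ppara, the gene of the receptor itself, stood at 4.49, 9.31 and 3.60 CPM in the SCL-treated livers, 30.6, 3.85 and 10.7 CPM in the high-fat diet livers and 15.4, 9.62 and 3.04 CPM in the normal diet livers. The ranges of the 3 groups overlapped, and a single liver, high-fat diet replicate 1, held the highest value. For Ppara the log2 fold change was -1.38 for SCL-treated against high-fat diet (SE 0.75, interval -3.21 to 0.44, edgeR adjusted p = 1.00) and 0.69 for high-fat against normal diet (SE 0.73, edgeR adjusted p = 0.921). These 2 values were -0.32 and -0.38 when high-fat diet replicate 1 was left out. Without the libraries over 40% mitochondrial they were -2.10 and 0.88. The intervals here and below cover 95% and were built from the standard error with 6 residual degrees of freedom. The edgeR p-values come from its own test, so an interval and a p need not match. Many intervals are wide, so large differences are not excluded. Those that span both signs leave the direction open.

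The bases around the starts of the genes were searched for the receptor's motif, and bases farther from the starts were not searched. RefSeq windows of 300 bases, from 250 before to 50 after a gene's start in the rat assembly GRCr8, were found for 28 of the 33 members and searched on both strands for AGGTCANAGGTCA, which is 2 hexamers with 1 base between them, allowing up to 2 mismatches. The motif was found in 4 of the 28 members (14.3%), against 3.77% of all 33469 windows. The first share rests on 4 windows of a chosen list. Known targets of the receptor were among the members without a match, with at least 4 mismatches in Pdk4, Fgf21 and Cpt1a and 3 in Ehhadh. The 4 stretches are shown with the 13 bases set against the motif in capitals, mismatches included. They are shown since they are the members whose start region resembles a binding motif of the receptor.
Acadvl, chr10:55236702-55236730, minus strand: gggagaagAGGTCAGTGGTCAaggcttca
Crat, chr3:34087302-34087330, minus strand: gacgttcaAGGACACCGGTCAgacttgga
Etfa, chr8:64788099-64788127, minus strand: gcacacccTTACCTTTGCCCTactcccaa
Slc25a20, chr8:118243580-118243608, plus strand: cttaatgtAGGTGAAAGGTCGgtgtagcc
The match of Acadvl had 1 mismatch and the others had 2, and that of Etfa lies on the opposite strand to the gene. In Slc25a20 the match begins 15 bases after the start. A match of letters is a description and not a known binding site. These 4 genes did not share a pattern: for SCL-treated against normal diet their log2 fold changes were -0.06 for Acadvl, -0.68 for Crat, 0.60 for Etfa and -0.24 for Slc25a20, and none was called.

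The carnitine shuttle brings fatty acids into mitochondria. The median log2 fold change of its 5 genes was -0.30 for SCL-treated against high-fat diet, -0.59 for SCL-treated against normal diet and -0.28 for high-fat against normal diet, and none was called. Without the libraries over 40% mitochondrial the same medians were -0.06, -0.43 and -0.67, and the first of these comparisons gave 0.08 when only high-fat diet replicate 3 was left out. Cpt1a, the liver form of the outer-membrane transferase that limits the rate of entry, stood at 257, 308 and 184 CPM in the SCL-treated livers, 498, 181 and 419 CPM in the high-fat diet livers and 741, 729 and 342 CPM in the normal diet livers. All SCL-treated livers lay below all normal diet livers, and the high-fat diet livers spread over both. The log2 fold change against normal diet was -1.28 for SCL-treated livers (SE 0.45, interval -2.37 to -0.18, edgeR unadjusted p = 0.016, adjusted p = 0.665) and -0.72 for high-fat diet livers (SE 0.44, edgeR adjusted p = 0.911).

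Cpt2, the inner-membrane partner that hands the chain back to CoA, stood at 118, 89.6 and 146 CPM in the SCL-treated livers, 94.0, 129 and 154 CPM in the high-fat diet livers and 174, 183 and 174 CPM in the normal diet livers. Both groups thus lay wholly below the normal diet livers, which were close together. Against normal diet, Cpt2 had log2 fold changes of -0.59 for SCL-treated (SE 0.29) and -0.49 for high-fat diet livers (SE 0.29), with edgeR adjusted p of 0.665 and 0.911. Crot, which makes carnitine esters of medium chains leaving peroxisomes, had the highest mean FPKM of the shuttle over the 9 livers and stood at 296, 326 and 197 CPM in the SCL-treated livers, 293, 219 and 499 CPM in the high-fat diet livers and 384, 373 and 231 CPM in the normal diet livers. The groups overlapped throughout. In normal diet livers alone Cpt1a was higher per length, with 153 FPKM against 131 FPKM for Crot. Slc25a20, the carrier that exchanges acylcarnitine for carnitine, differed little, at 154 ± 28.4 CPM in SCL-treated, 149 ± 17.5 CPM in high-fat diet and 181 ± 27.5 CPM in normal diet livers (SD, n = 3 each).

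Crat, the short-chain carnitine acetyltransferase, showed how much 1 liver can carry. It averaged 48.0 ± 28.4 CPM in SCL-treated, 75.3 ± 57.7 CPM in high-fat diet and 76.7 ± 15.6 CPM in normal diet livers (SD, n = 3 each), and high-fat diet replicate 3 alone held 142 CPM. The log2 fold change for SCL-treated against high-fat diet was -0.65 (SE 0.53), and 0.19 without that liver.

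The 4 acyl-CoA dehydrogenases, which take the first step of each round of beta-oxidation for chains of different length, had step medians of 0.15 for SCL-treated against high-fat diet, 0.06 for SCL-treated against normal diet and -0.08 for high-fat against normal diet. Acadl, the long-chain enzyme, stood at 399, 374 and 593 CPM in the SCL-treated livers, 352, 392 and 368 CPM in the high-fat diet livers and 318, 338 and 504 CPM in the normal diet livers. The groups overlapped, with SCL-treated replicate 3 highest. Per length Acadl and Acadm were nearly level over the 9 livers, at 275.1 and 274.7 FPKM, and Acadm was the higher of them in high-fat diet and normal diet livers. For Acadl the log2 fold change of SCL-treated against high-fat diet was 0.30 (SE 0.31, interval -0.46 to 1.06, edgeR adjusted p = 1.00). Acadm, the medium-chain enzyme, averaged 515 ± 178 CPM in SCL-treated, 514 ± 94.4 CPM in high-fat diet and 549 ± 40.9 CPM in normal diet livers (SD, n = 3 each). Acads, the short-chain enzyme, had its lowest value, 62.8 CPM, and its highest, 270 CPM, both in SCL-treated livers.

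The next reactions of each round are hydration, oxidation and thiolysis. Their 4 genes had medians of 0.11 for SCL-treated against high-fat diet, -0.37 for SCL-treated against normal diet and -0.44 for high-fat against normal diet. For SCL-treated against normal diet the median was -0.13 without the libraries over 40% mitochondrial, and for SCL-treated against high-fat diet it ran from -0.11 to 0.43 with each library left out in turn. Hadha, the alpha subunit of the trifunctional protein for long chains, stood at 416, 160 and 350 CPM in the SCL-treated livers, 368, 282 and 267 CPM in the high-fat diet livers and 404, 451 and 469 CPM in the normal diet livers. Every high-fat diet liver lay below every normal diet liver, and the SCL-treated livers overlapped both groups. That pair of groups gave a log2 fold change of -0.53 (SE 0.36, interval -1.41 to 0.35, edgeR adjusted p = 0.911). Hadhb, the beta subunit of the same protein, stood at 213, 125 and 182 CPM in the SCL-treated livers, 229, 95.01 and 194 CPM in the high-fat diet livers and 225, 250 and 182 CPM in the normal diet livers.

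Hadha and Hadhb are read in opposite directions from starts that lie 301 bases apart in GRCr8, so the stretch between them serves as the start region of both. The 200 bases that both RefSeq windows hold are shown because the products act in 1 complex.
Hadha and Hadhb shared stretch, chr6:31907551-31907750, plus strand: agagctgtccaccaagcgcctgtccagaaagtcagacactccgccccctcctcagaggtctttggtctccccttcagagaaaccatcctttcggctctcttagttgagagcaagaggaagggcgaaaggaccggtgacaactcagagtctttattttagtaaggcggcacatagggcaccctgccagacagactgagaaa
The ratio of Hadha to Hadhb in FPKM was 1.29, 0.8496 and 1.27 in the SCL-treated livers, 1.06, 1.96 and 0.908 in the high-fat diet livers and 1.19, 1.19 and 1.71 in the normal diet livers. The ratio spread most among the high-fat diet livers, and 2 of the 9 livers held less Hadha than Hadhb per length. Hadha and Hadhb had log2 fold changes of 0.02 and 0.00 in SCL-treated against high-fat diet livers. Against normal diet they stood at -0.51 and -0.34 in SCL-treated and at -0.53 and -0.34 in high-fat diet livers.

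Acaa2, the mitochondrial thiolase, had the highest level per length of this step and stood at 1031, 372 and 842 CPM in the SCL-treated livers, 699, 572 and 627 CPM in the high-fat diet livers and 422, 474 and 796 CPM in the normal diet livers. The SCL-treated livers held both the highest and the lowest value. Acaa2 had log2 fold changes of 0.24 for SCL-treated against high-fat diet (SE 0.41) and 0.41 for SCL-treated against normal diet (SE 0.41), with edgeR adjusted p of 1.00 and 0.744. Hadh, the dehydrogenase for medium and short chains, averaged 156 ± 71.9 CPM in SCL-treated, 135 ± 119 CPM in high-fat diet and 205 ± 38.0 CPM in normal diet livers (SD, n = 3 each). Its high-fat diet livers ranged from 58.5 to 272 CPM, a range that holds every value of the other groups.

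The 3 enzymes of the next group prepare chains with unsaturated bonds for the cycle, and none was called. Eci1, the mitochondrial enoyl-CoA isomerase, stood at 592, 398 and 355 CPM in the SCL-treated livers, 213, 407 and 714 CPM in the high-fat diet livers and 292, 569 and 780 CPM in the normal diet livers. Within each group the livers differed more than the group means did, with a log2 fold change of 0.01 for SCL-treated against high-fat diet (SE 0.49, interval -1.17 to 1.20, edgeR adjusted p = 1.00). Decr1, the dienoyl-CoA reductase, averaged 312 ± 42.5 CPM in SCL-treated, 253 ± 38.8 CPM in high-fat diet and 251 ± 64.6 CPM in normal diet livers (SD, n = 3 each). Eci2, an isomerase found in both mitochondria and peroxisomes, averaged 484 ± 160 CPM in SCL-treated, 479 ± 127 CPM in high-fat diet and 536 ± 138 CPM in normal diet livers.

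Electrons from the dehydrogenases pass through the flavoprotein of Etfa and Etfb to the oxidoreductase Etfdh. The step medians were 0.12 for SCL-treated against high-fat diet, 0.29 for SCL-treated against normal diet and 0.40 for high-fat against normal diet, the only mitochondrial step with a positive median of over 0.10 against normal diet in both groups. Etfa stood at 388, 428 and 386 CPM in the SCL-treated livers, 243, 421 and 380 CPM in the high-fat diet livers and 195, 232 and 366 CPM in the normal diet livers. All SCL-treated livers lay above all normal diet livers, with a log2 fold change of 0.60 (SE 0.33, interval -0.21 to 1.41, edgeR adjusted p = 0.665). Etfb stood at 353, 261 and 351 CPM in the SCL-treated livers, 172, 479 and 469 CPM in the high-fat diet livers and 172, 231 and 387 CPM in the normal diet livers. The groups overlapped, and the lowest values of Etfb came from high-fat diet replicate 1 and normal diet replicate 1. Etfdh averaged 252 ± 55.5 CPM in SCL-treated, 232 ± 56.8 CPM in high-fat diet and 262 ± 31.9 CPM in normal diet livers (SD, n = 3 each).

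Levels also differed between libraries by gene length. Over all tested genes, the 1142 of up to 1000 bases had a median log2 level, relative to each gene's mean over the 9 livers, of 0.25, -0.09 and 0.16 in the SCL-treated, -0.37, 0.39 and 0.06 in the high-fat diet and -0.38, -0.17 and 0.13 in the normal diet livers. The 1416 genes of over 5000 bases ran the other way, at -0.23, 0.14 and -0.27 in the SCL-treated, 0.22, -0.13 and 0.01 in the high-fat diet and 0.18, 0.13 and -0.10 in the normal diet livers. Each of the 32 tested members was set against the genes of its own length bin, and lay on the same side of its mean as their median in 2 to 9 of the 9 livers, with a median of 5.5. Etfb, with 908 bases, did so in 9 livers and Cpt1a, with 4327 bases, in 8, while Fgf21, the shortest tested member with 627 bases, did so in 4 and Pdk4 in 2. In the middle length bin, which ends at 3000 bases, the median level of all tested genes stayed between -0.034 and 0.012 in every library. Its sign therefore says little for the 15 members of that bin, which had a median of 5.0 livers, with 0 at 8 or more. The 17 members of the other bins had a median of 6.0, and 4 of them reached 8 or more (Etfb, Cpt1a, Acadl and Decr1). With the slope of level on length as a covariate, an alternative chosen after seeing the data, the log2 fold change for SCL-treated against normal diet was -0.68 for Cpt1a (edgeR unadjusted p = 0.0884), 0.40 for Etfa and -0.18 for Etfb, and the median of the electron transfer genes was -0.02. The median of the hydration to thiolysis genes was then -0.03, and that of the acyl-CoA dehydrogenases -0.21. For Ppara the covariate gave 0.64, against -0.69 without it (SE 0.74), and for SCL-treated against high-fat diet it gave -0.28. The part of length in the values without the covariate was not tested otherwise.

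**Figure D4:**
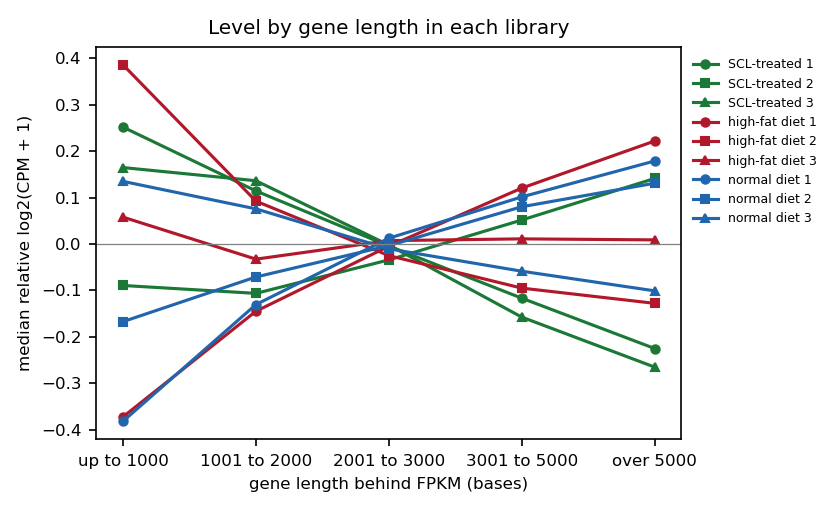
Median log2(CPM + 1) relative to the gene mean over 9 livers, for tested genes in 5 bins of length in bases, with 1 line per library. High-fat diet replicate 1 and normal diet replicates 1 and 2 are low for short genes and high for long genes, and SCL-treated replicates 1 and 3 run the other way.

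Peroxisomal beta-oxidation starts on chains that mitochondria take up poorly. Its 4 genes had medians of -0.02 for SCL-treated against high-fat diet, 0.00 for SCL-treated against normal diet and 0.02 for high-fat against normal diet. Acaa1b, a peroxisomal thiolase with a close relative in the genome, stood at 549, 296 and 559 CPM in the SCL-treated livers, 409, 359 and 564 CPM in the high-fat diet livers and 308, 410 and 468 CPM in the normal diet livers. The groups overlapped, with a log2 fold change of 0.08 for SCL-treated against high-fat diet (SE 0.35, interval -0.77 to 0.92, edgeR adjusted p = 1.00). Ehhadh, the peroxisomal bifunctional enzyme and a classical target of the receptor in rodents, averaged 472 ± 260 CPM in SCL-treated, 499 ± 169 CPM in high-fat diet and 506 ± 119 CPM in normal diet livers (SD, n = 3 each). Hsd17b4 was the steadiest member, at 616 ± 36.4 CPM in SCL-treated, 598 ± 60.8 CPM in high-fat diet and 573 ± 67.9 CPM in normal diet livers. Pex11a, a membrane protein that promotes the division of peroxisomes, stood at 124 CPM in high-fat diet replicate 3 and between 26.9 and 86.5 CPM in the other 8 livers. For SCL-treated against high-fat diet the log2 fold change of Pex11a was -0.70 (SE 0.47), and 0.0025 without that liver.

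Omega-oxidation had step medians of -0.20 for SCL-treated against high-fat diet, -0.94 for SCL-treated against normal diet and -0.95 for high-fat against normal diet, the last being the lowest of all steps in that comparison. For SCL-treated against normal diet the median is the value of Cyp4a1. Cyp4a2, by far the most abundant of the 3, stood at -0.09 there (SE 0.53, interval -1.40 to 1.22). The 3 Cyp4a genes together took 27.1% ± 4.71 of the members' reads in SCL-treated, 17.9% ± 6.05 in high-fat diet and 28.7% ± 8.77 in normal diet livers (SD, n = 3 each). Cyp4a2 stood at 3981, 2035 and 2194 CPM in the SCL-treated livers, 1627, 593 and 2298 CPM in the high-fat diet livers and 4294, 2437 and 2020.2 CPM in the normal diet livers. High-fat diet replicates 1 and 2 lay below all other livers, while replicate 3 overlapped both other groups. The log2 fold change was 0.86 for SCL-treated against high-fat diet (SE 0.54, interval -0.46 to 2.18, edgeR adjusted p = 1.00) and -0.95 for high-fat against normal diet (SE 0.54, interval -2.27 to 0.37, edgeR adjusted p = 0.911). Without the libraries over 40% mitochondrial the same values were 1.47 and -1.40.

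Cyp4a1, a fatty acid omega-hydroxylase induced by PPAR alpha ligands in rat liver, stood at 262, 292 and 224 CPM in the SCL-treated livers, 162, 319 and 411 CPM in the high-fat diet livers and 381, 586 and 527 CPM in the normal diet livers. The SCL-treated livers lay wholly below the normal diet livers, and high-fat diet replicate 3 alone of its group reached into the normal diet range. The difference from normal diet was -0.94 on the log2 scale for SCL-treated livers (SE 0.37, interval -1.84 to -0.04, edgeR unadjusted p = 0.0267, adjusted p = 0.665) and -0.74 for high-fat diet livers (SE 0.37, edgeR unadjusted p = 0.0674, adjusted p = 0.911). With the mitochondrial share as a covariate the high-fat diet value was -1.20. Cyp4a8, a member of the family expressed at a low level here, stood at 2.31, 3.20 and 7.02 CPM in the SCL-treated livers, 7.21, 5.10 and 4.26 CPM in the high-fat diet livers and 10.5, 21.8 and 12.4 CPM in the normal diet livers. Both other groups lay wholly below the normal diet livers. Its log2 fold change against normal diet was -1.83 for SCL-treated livers (SE 0.47, edgeR unadjusted p = 0.0025, adjusted p = 0.665) and -1.42 for high-fat diet livers (SE 0.46, edgeR unadjusted p = 0.0104, adjusted p = 0.911).

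Cyp4a2 has a close copy in Cyp4a3, and reads of such copies can be split or merged by counting. The 250 bases before the starts of the pair are shown because they are nearly identical, with the bases that differ, after alignment, in capitals.
Cyp4a2, chr5:134170909-134171158, minus strand: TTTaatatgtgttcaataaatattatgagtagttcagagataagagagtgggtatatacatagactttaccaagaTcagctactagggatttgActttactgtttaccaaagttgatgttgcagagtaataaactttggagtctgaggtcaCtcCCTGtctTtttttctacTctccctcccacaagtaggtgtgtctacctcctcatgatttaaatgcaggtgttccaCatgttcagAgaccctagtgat
Cyp4a3, chr5:134352237-134352486, minus strand: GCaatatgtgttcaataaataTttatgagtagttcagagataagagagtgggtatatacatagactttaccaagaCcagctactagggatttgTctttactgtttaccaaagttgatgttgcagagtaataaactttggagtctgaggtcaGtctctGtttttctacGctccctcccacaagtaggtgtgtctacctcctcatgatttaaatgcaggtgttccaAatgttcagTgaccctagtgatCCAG
In the alignment 236 positions were identical (92.5%) and 10 held a gap. These bases lie before the starts, so their likeness does not show how reads of the copies were assigned. The transcripts were not compared, and which copy the reads counted for Cyp4a2 came from was not tested. The ratio of Cyp4a2 to Cyp4a1 in FPKM was 19.2, 8.80 and 12.4 in the SCL-treated livers, 12.7, 2.35 and 7.07 in the high-fat diet livers and 14.3, 5.26 and 4.84 in the normal diet livers. Cyp4a2 exceeded Cyp4a1 per length in every liver, and the ranges of the 3 groups overlapped.

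Acyl-CoA thioesterases release free fatty acids from CoA. Acot2, the mitochondrial form, stood at 54.4, 102 and 22.8 CPM in the SCL-treated livers, 29.8, 45.5 and 173 CPM in the high-fat diet livers and 46.1, 80.6 and 71.5 CPM in the normal diet livers. In the SCL-treated and the high-fat diet groups the highest value came from the liver with the large mitochondrial share. High-fat against normal diet gave a log2 fold change of 0.32 (SE 0.66, interval -1.28 to 1.93, edgeR adjusted p = 0.941). Leaving out high-fat diet replicate 3 gave -0.82. Acot1, the cytosolic form and a close copy of Acot2, held 3 to 8 reads in the SCL-treated livers, 3 to 55 reads in the high-fat diet livers and 5 to 25 reads in the normal diet livers, and was not tested.

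Bdh1, which interconverts the 2 main ketone bodies in mitochondria, stood at 316, 184 and 326 CPM in the SCL-treated livers, 394, 197 and 205 CPM in the high-fat diet livers and 363, 250 and 299 CPM in the normal diet livers. The groups overlapped, with a log2 fold change of 0.06 for SCL-treated against high-fat diet (SE 0.36, interval -0.84 to 0.95, edgeR adjusted p = 1.00) and -0.20 for high-fat against normal diet (SE 0.37, edgeR adjusted p = 0.938).

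Among the 3 further targets of the receptor, Pdk4 and Fgf21 had, with Cyp4a8, the lowest unadjusted p-values of the list. Pdk4, a kinase that shuts down pyruvate dehydrogenase and so spares glucose, stood at 59.9, 21.6 and 40.01 CPM in the SCL-treated livers, 98.7, 31.3 and 70.2 CPM in the high-fat diet livers and 207, 176 and 82.6 CPM in the normal diet livers. All SCL-treated livers lay below all normal diet livers, and high-fat diet replicate 1 lay above the lowest normal diet liver. The log2 fold change against normal diet was -1.94 for SCL-treated livers (SE 0.52, interval -3.20 to -0.67, edgeR unadjusted p = 0.0034, adjusted p = 0.665) and -1.22 for high-fat diet livers (SE 0.51, edgeR unadjusted p = 0.0353, adjusted p = 0.911). Leaving out each library in turn gave -2.35 to -1.64 for SCL-treated and -1.63 to -0.89 for high-fat diet livers. With the mitochondrial share as a covariate the high-fat diet value was -0.68.

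Fgf21, a hormone that the liver secretes in fasting and on ketogenic diets, stood at 10.2, 6.02 and 10.003 CPM in the SCL-treated livers, 17.9, 11.5 and 50.7 CPM in the high-fat diet livers and 12.7, 12.96 and 9.47 CPM in the normal diet livers. All high-fat diet livers lay above all SCL-treated livers, and high-fat diet replicate 3 stood far above the rest. The log2 fold change of Fgf21 was -1.61 for SCL-treated against high-fat diet (SE 0.50, interval -2.83 to -0.39, edgeR unadjusted p = 0.0084, adjusted p = 1.00) and 1.19 for high-fat against normal diet (SE 0.49, edgeR unadjusted p = 0.0343, adjusted p = 0.911). Without high-fat diet replicate 3 these were -0.76 (unadjusted p = 0.0604) and 0.33 (unadjusted p = 0.381) in edgeR. Vnn1, a pantetheinase on the cell surface, averaged 36.4 ± 15.0 CPM in SCL-treated, 54.0 ± 26.7 CPM in high-fat diet and 71.6 ± 26.8 CPM in normal diet livers (SD, n = 3 each), with a log2 fold change of -0.98 for SCL-treated against normal diet (SE 0.45, edgeR unadjusted p = 0.0519, adjusted p = 0.665).

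**Figure D5:**
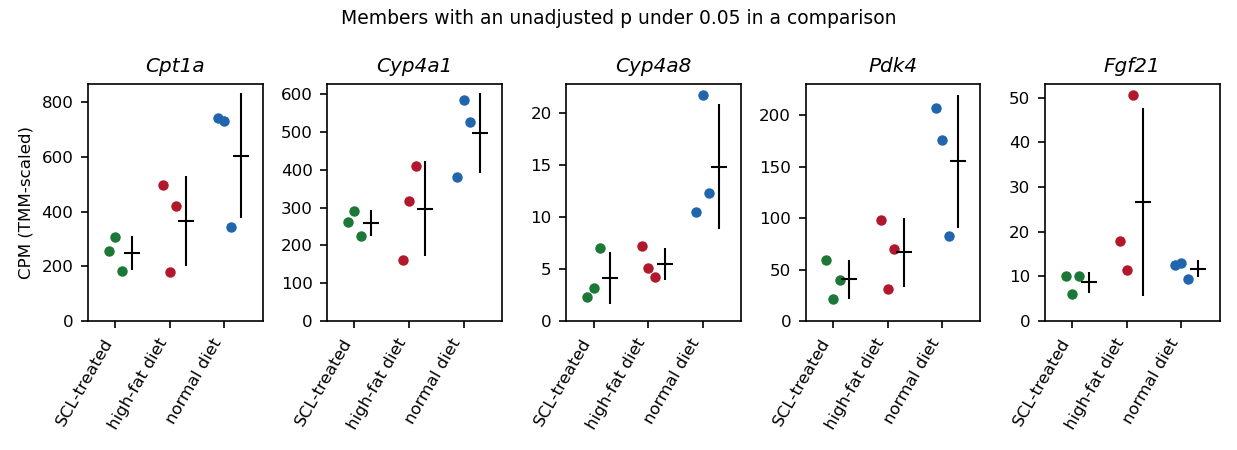
CPM of the 5 members with an unadjusted edgeR p under 0.05 in any comparison, with 1 point per library and bars for the group mean and SD (n = 3), in SCL-treated, high-fat diet and normal diet livers. SCL-treated livers lie below normal diet livers for Cpt1a, Cyp4a1, Cyp4a8 and Pdk4. For Fgf21 all high-fat diet livers lie above all SCL-treated livers, and 1 high-fat diet liver stands far above the rest.

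Grouped by organelle, the 19 mitochondrial genes had medians of 0.02 for SCL-treated against high-fat diet, -0.14 for SCL-treated against normal diet and -0.20 for high-fat against normal diet. The 5 peroxisomal genes stood at -0.08, -0.10 and 0.03 in the same order, and the 3 genes of the endoplasmic reticulum, all Cyp4a, at -0.20, -0.94 and -0.95. The -0.94 is the value of Cyp4a1, and Cyp4a2 stood at -0.09 in that comparison. None of the organelle groups held a called gene. Without the libraries over 40% mitochondrial the median of all members was 0.16 for SCL-treated against high-fat diet, -0.11 for SCL-treated against normal diet and -0.27 for high-fat against normal diet, and the omega-oxidation medians were 0.01, -1.05 and -1.27. Acyl-CoA dehydrogenases then had medians of 0.28, 0.26 and -0.09, and peroxisomal oxidation 0.21, 0.11 and -0.14. For unsaturated bonds they were 0.49, 0.08 and -0.23, against 0.02, -0.15 and -0.16 with all libraries. For the 3 further targets of the receptor they were -0.39, -1.25 and -0.89, against -0.72, -0.98 and -0.41 with all libraries.

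Of 99 other genes of fatty acid handling listed by pathway, 93 were in both tables and 90 were tested. edgeR called 0 of the 90 in any comparison. At an unadjusted p under 0.05, 0 were higher and 3 lower in SCL-treated than in high-fat diet livers, 2 higher and 10 lower in SCL-treated than in normal diet livers, and 4 higher and 5 lower in high-fat diet than in normal diet livers, which made 19 different genes. Of all 12041 tested genes, 1.95%, 6.88% and 4.32% reached that p in these comparisons. The smallest p belonged to Hacl1, a lyase of peroxisomal alpha-oxidation, which stood at 356, 121 and 188 CPM in the SCL-treated, 278, 429 and 474 CPM in the high-fat diet and 587, 801 and 485 CPM in the normal diet livers. Its log2 fold change for SCL-treated against normal diet was -1.49 (SE 0.43, edgeR unadjusted p = 0.0053, adjusted p = 0.665), and those groups did not overlap. For the same pair of groups Fitm2, which helps to form lipid droplets, stood at -0.86 (SE 0.28), and the peroxisomal thioesterase Acot3 at -1.43 (SE 0.53).

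For high-fat against normal diet, the other pathway genes with the smallest p included regulators of fatty acid use. Acacb, the acetyl-CoA carboxylase whose product malonyl-CoA holds back Cpt1a, stood at 23.5, 10.1 and 12.4 CPM in the high-fat diet and 38.1, 50.6 and 21.5 CPM in the normal diet livers, a log2 fold change of -1.25 (SE 0.42). Pparg, the fat-storage relative of PPAR alpha, stood at 7.58, 5.497 and 4.78 CPM in the high-fat diet and 3.72, 2.48 and 2.096 CPM in the normal diet livers, a log2 fold change of 1.11 (SE 0.41). Every high-fat diet liver lay above every normal diet liver for Pparg. Prkab1, a subunit of the AMP-activated kinase, stood at 0.72 (SE 0.27), Acsl3, an acyl-CoA synthetase, at -1.06 (SE 0.39), and Ppargc1a, a coactivator of PPAR alpha with under 5 CPM in every liver, at -2.55 (SE 0.97). For each of these 5 genes the edgeR adjusted p was 0.911.

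In the authors' deposited table of normal diet over high-fat diet, whose fold changes run opposite to those above, 53 genes had an adjusted p under 0.05 and 0 of them were members. The lowest adjusted p of a member there was 0.135, for Cyp4a8 with a log2 fold change of 1.43. The authors' deposited table of SCL-treated over high-fat diet held 0 genes with an adjusted p under 0.05, and gave Fgf21 a log2 fold change of -1.60 with an unadjusted p of 0.00456 and Ppara one of -1.41 with an unadjusted p of 0.0403.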

How the data were processed

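Per the labels' protocols, liver total RNA was taken up in Trizol and libraries were built with a NEBNext Ultra kit. The authors deposited 2 tables, and the high-fat diet libraries are in both, once beside the normal diet and once beside the SCL-treated libraries. Raw counts were used, per the file headers. The deposited tables also give a normalized signal (counts over a size factor), FPKM, log2 fold changes and p-values with adjustment. DESeq2 and the mouse build mm9 are named in the submitters' processing notes. Aligner, counter and strand setting: not given in the sources used here. The gene lengths behind the deposited FPKM values were recovered from counts and totals and came out whole for 100% of values, within 0.001 bases.

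Counts of the 15565 genes in both tables entered 1 edgeR 4.0.16 quasi-likelihood fit of all 9 libraries in R 4.3.3, with group as the only term, 6 residual degrees of freedom, TMM scaling and a filterByExpr minimum count of 10, which left 12041 genes. Standard errors were derived from the log2 fold change and its F value. Benjamini-Hochberg adjustment ran over all genes tested, with calls under 0.05. No set test was made. Depth was 12413774 to 15521648 reads, which limits genes of few reads. Within groups, pairs of libraries differed beyond sampling noise (chi-square per degree of freedom of at least 38.5), so none was counted as a repeated sequencing of the same library. Separate preparations from 1 animal could differ beyond that noise too, so this does not show that the libraries came from separate animals.

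The members, their steps and the pathway and marker lists were chosen with earlier results of these data known. Per-library values are given for members with an unadjusted p under 0.05 in any comparison and for the member with the highest mean FPKM of each step. Values of Cpt2, Hadha, Hadhb and Etfa per library were added after their values were seen. At most 8 other pathway genes are named, by smallest p. Alternatives were DESeq2 1.42.0, its size factors, library totals alone, removal of mitochondrial transcripts, no count filter, a fit of the 6 libraries of a comparison alone, a covariate for the mitochondrial share, only the 7 libraries under 40% mitochondrial, a replicate block and each library left out in turn. A length covariate was added after seeing the data. The fit was tested on simulated counts. Promoter windows are those of RefSeq, assembly GRCr8, matched by symbol. Plots were made with Python 3.11.15 and matplotlib 3.10.9.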

Additional observations from a re-analysis of the deposited data

How the results depend on the processing

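No member was called in any of the 3 comparisons under any of 19 alternatives, with a lowest adjusted p of 0.703 for SCL-treated against high-fat diet, 0.0607 for SCL-treated against normal diet and 0.127 for high-fat against normal diet. The median of the members for SCL-treated against normal diet was -0.43 with library totals alone and ran from -0.45 to -0.12 with each library left out in turn, lowest without SCL-treated replicate 1. Library totals alone moved the median of all tested genes to -0.21 in that comparison and to -0.19 for SCL-treated against high-fat diet. Without high-fat diet replicate 3 the log2 fold change for SCL-treated against high-fat diet changed sign for 12 of the 32 members. In 10 of these the value from all libraries lay within 1 SE of 0, and the widest turn was that of Acot2, at 0.66 without that library and -0.47 with it. The other 2 were Crat and Pex11a, which ran from -1.25 to 0.19 and from -0.98 to 0.0025 with each library left out in turn. The number of members with an unadjusted p under 0.05 ran from 0 to 3 for SCL-treated against high-fat diet, from 2 to 8 for SCL-treated against normal diet and from 0 to 5 for high-fat against normal diet. A replicate block left 0 members called and medians of -0.03, -0.19 and -0.13 in the same order. Same-numbered libraries had correlations of deviations from -0.49 to 0.67, so the numbers were not taken to pair samples. With 3 libraries a group and wide standard errors, absence of a call does not show that levels were equal.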
